A study of Mus musculus with 5 samples.

Results

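Binding of IRF4 and IRF8 was examined around 9 genes of the germinal centre (GC) and of B cell activation: Bcl6, Ezh2, Mef2b, Mef2c, Il21r, S1pr2, Gna13, Fas and Cd83. An interval was assigned to a gene when its centre lay in the gene body or within 50 kb of it (GENCODE M1, build mm9). By this rule 24 of the 5590 intervals in the 5 deposited lists belonged to 7 of the 9 genes, and Bcl6 and Fas had none. The intervals fell at 14 separate places, of which 8 were in 1 list, 4 in 2 lists and 2 in 4 lists.

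The study mapped both factors by chromatin immunoprecipitation and sequencing (ChIP-seq), which recovers DNA fragments bound by the protein that an antibody captures. All samples were from C57BL/6 mice that the labels call wild type; the headers of the LPS lists add a code to the library names that no source used here explains. In 4 groups, naive B cells of the spleen were cultured with 10 µg/ml of lipopolysaccharide (LPS), a bacterial product that activates B cells, and chromatin was taken with an IRF4 (M-17) or an IRF8 (C-19) antibody after 48 h or 72 h. In the fifth group, GC B cells were sorted 13 days after immunisation with NP-KLH, frozen without culture and used with the IRF8 antibody; a service company processed this sample for ChIP-seq. Age, sex and the number of mice per sample were not given in the sources used here. Each group had 1 library, and differences between groups could not be tested. The files hold binding intervals and no expression, so the cell type labels could not be checked against marker genes.

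In a germinal centre, activated B cells divide, mutate their antibody genes and compete for help from T cells. BCL6 is the repressor that the GC state depends on, and EZH2, the enzyme of Polycomb complex PRC2 that methylates histone H3, acts with it. MEF2B and MEF2C are transcription factors of activated and GC B cells. The IL-21 receptor takes up the signal of follicular T cells, the S1PR2 receptor and its G protein subunit Gα13 keep cells inside the follicle, FAS is a death receptor, and CD83 is a surface protein of activated and light zone B cells. IRF4 and IRF8 bind DNA weakly alone. They pair with ETS factors such as PU.1 on the ETS-IRF composite element (EICE), with AP-1 proteins on AP-1-IRF composites, and they bind interferon-stimulated response elements (ISRE).

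The windows that carried a known element are shown here, 201 bases each, on the plus strand of mm9. Capitals mark an EICE (GGAA, any 2 bases, GAAA), an ISRE core (GAAA, any 2 bases, GAAA) or an AP-1 site (TGACTCA or TGAGTCA) with, at Cd83, the GAAA that makes it a composite. The first is centred on the IRF4 48 h peak upstream of Cd83 (chr13:43856620-43856820), the next on the IRF4 72 h peak upstream of Ezh2 (chr6:47571192-47571392), and the third on the IRF4 48 h peak in a Mef2c intron (chr13:83671139-83671339). They are the only 3 of the 9 places with an LPS peak whose 201-base window held an EICE, an ISRE core or an AP-1 site.
Cd83, 23.8 kb upstream: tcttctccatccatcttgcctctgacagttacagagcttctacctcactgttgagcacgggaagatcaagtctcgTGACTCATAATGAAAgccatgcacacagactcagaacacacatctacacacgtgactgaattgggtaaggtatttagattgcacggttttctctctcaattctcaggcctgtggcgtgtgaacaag
Ezh2, 26 kb upstream: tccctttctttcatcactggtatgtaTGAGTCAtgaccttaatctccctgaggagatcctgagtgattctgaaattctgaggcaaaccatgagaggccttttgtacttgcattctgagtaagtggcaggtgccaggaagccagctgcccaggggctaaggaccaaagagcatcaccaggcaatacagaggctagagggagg
Mef2c, 28.2 kb inside: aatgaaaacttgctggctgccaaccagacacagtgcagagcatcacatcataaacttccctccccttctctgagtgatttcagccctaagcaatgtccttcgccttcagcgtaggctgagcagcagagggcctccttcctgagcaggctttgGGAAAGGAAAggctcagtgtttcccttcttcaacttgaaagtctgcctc

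The upstream Cd83 window held TGACTCA, then TAAT, then GAAA, an AP-1 site and an IRF half-site 4 bases apart, and the AP-1 site lay 22 bp from the peak centre. This spaced composite (AP-1 with GAAA or its complement 4 bases away, either strand) was in 2.49% of all IRF4 48 h windows, 2.6% of IRF4 72 h windows and 4.42% of IRF8 48 h windows, against 0.0729% of 52141 windows of that length spaced evenly over the genome. The Ezh2 window, that of the IRF4 72 h peak, held TGAGTCA at 71 bp from the centre. This site lies further than 100 bp from the centre of the IRF4 48 h peak at the same place. The Mef2c window held the EICE GGAAAGGAAA at 56 bp from the centre. An AP-1 site was in 3.2% of genome windows, 28.7% of IRF4 48 h windows and 18.5% of IRF4 72 h windows. An EICE was in 2.17% of genome windows and in 14.6% and 25.6% of the same lists. A match describes the sequence and does not show what is bound there.

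Intervals lay near more of the 9 genes for IRF4 than for IRF8. The IRF4 48 h list had an interval at 6 of the 9 genes (8 intervals), against 11.5% of all 22380 protein-coding genes by the same rule. The IRF4 72 h list reached 4 genes (5 intervals), against 7.61% of all genes. The IRF8 48 h list reached 2 genes (2 intervals; 1.99% of all genes) and the IRF8 72 h list 3 genes (3 intervals; 8.81%). The IRF8 GC list reached 2 genes, Cd83 and S1pr2, with 6 intervals, against 15.6% of all genes. Any list reached 7 of 9 genes, against 28.1% of all genes, and among the 11832 genes whose windows were as long as those of the 9 (111 to 264 kb) the share was 32.2%. The 9 genes were chosen with results of these lists known, so these counts describe the genes and are no evidence that IRF4 prefers them. List lengths differ as well, from 234 intervals (IRF8 48 h) to 1826 (GC).

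**Figure D1:**
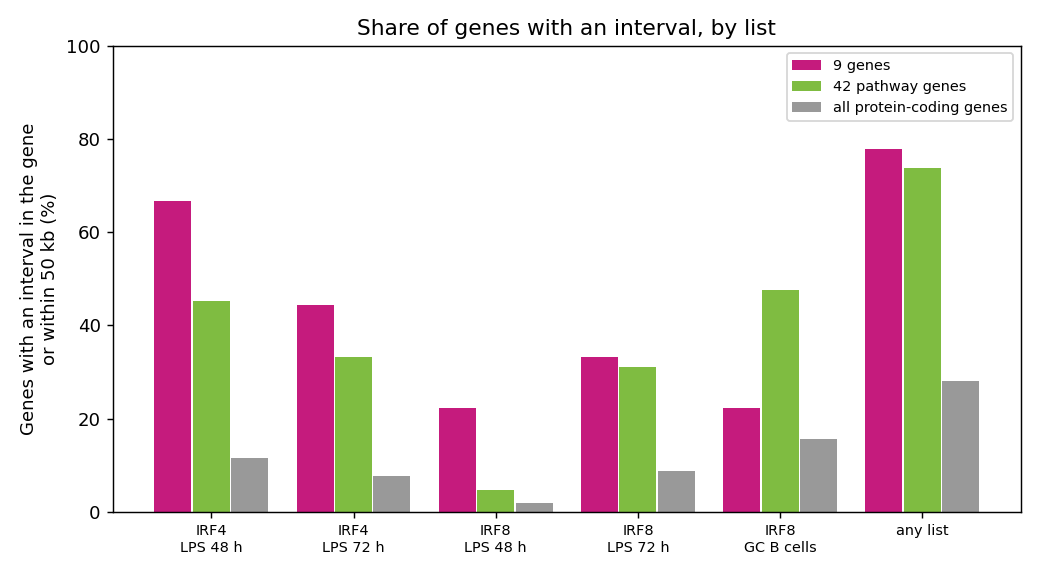
Percentage of genes with an interval in the gene body or within 50 kb (y axis) in each list and in any list (x axis), for the 9 genes, for 42 genes of the same pathways and for all 22380 protein-coding genes. The bars for the 9 genes run from 22.2% (IRF8 48 h and GC, 2 of 9 genes) to 66.7% (IRF4 48 h, 6 of 9) in single lists, and the bar for any list is at 77.8% (7 of 9).

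**Figure D2:**
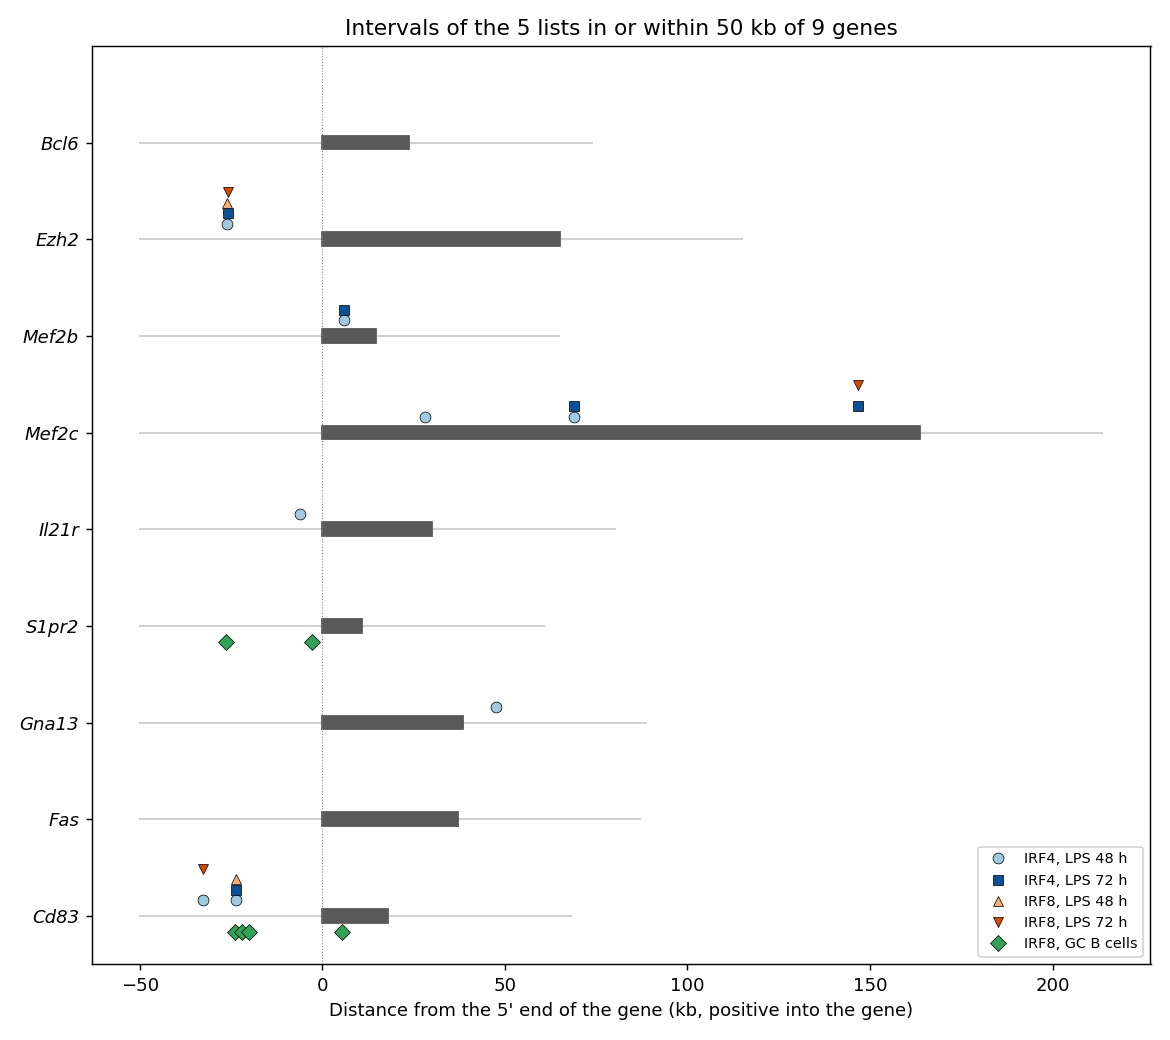
Interval centres by distance from the 5' end of each gene in kb (x axis; positive values run into and past the gene), 1 row per gene; dark bars are gene bodies, pale lines the 50 kb on each side, and marks the lists, LPS above the row and GC below it. Marks of 4 LPS lists stand together 26 kb upstream of Ezh2, while Bcl6 and Fas carry none.

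Among the transcription and chromatin regulators, Ezh2 carried the strongest peak. The gene lies on chromosome 6, 47480273 to 47545340 on the minus strand, and its only place was intergenic, 26 kb upstream of the 5' end, with Ezh2 as the nearest transcription start site (TSS). Peak heights are the authors' normalised tags, which set each library to 10000000 tags. The peak had 100.1 normalised tags for IRF4 at 48 h, with a 95% Poisson interval of 69.3 to 140, and 100.9 for IRF4 at 72 h (71.4 to 138). For IRF8 it had 29.7 at 48 h (15.8 to 50.8) and 52.2 at 72 h (29.8 to 84.8). Both IRF4 libraries thus stood above both IRF8 libraries, the IRF4 intervals did not overlap that of IRF8 at 48 h, and no GC interval lay closer than 850 kb. The peak ranked 52 of 1573 and 26 of 898 in the IRF4 lists, within the top 3.31% and 2.9%. All intervals of this kind cover counting error only and no spread between libraries, as each group had 1 library.

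At Ezh2 the IRF4 library had 3.37 times the normalised tags of the IRF8 library at 48 h (95% exact interval 1.73 to 6.96, from 34 and 13 tags). At 72 h the ratio was 1.93 (1.05 to 3.71, from 38 and 16 tags). Of all 122 places in both 48 h lists, 43.4% had at least 1.5 times as many tags for IRF4 and 1.64% at least 1.5 times as many for IRF8. The median log2 ratio there was 0.45, and 95.1% of places were at or below the Ezh2 ratio. Of the 258 places in both 72 h lists, 12.4% leaned that far to IRF4 and 12.0% to IRF8, the median log2 ratio was -0.04, and 96.5% were at or below Ezh2. IRF4 tags at Ezh2 were level between 48 h and 72 h, with a ratio of 1.01 (0.618 to 1.65). The IRF8 ratio of 72 h over 48 h was 1.76 (0.792 to 3.97), an interval that includes 1, and 50% of the 138 places in both IRF8 lists reached 1.5 in that direction against 0.725% in the other. Relative to the median of all places in a pair, Ezh2 stood 1.30 higher on the log2 scale for IRF4 over IRF8 at 48 h and 0.99 higher at 72 h. These values compare libraries, not conditions. At 48 h, 0.82% of the tags of the IRF4 library and 0.18% of those of the IRF8 library lay in peaks. At 72 h the shares were 0.45% and 0.52%. Whether they bear on the ratios was not tested.

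Mef2c, on chromosome 13 at 83643033 to 83806684 (plus strand), had 3 places, all in introns and at 3 different distances. The EICE peak 28.2 kb inside the gene was in the IRF4 48 h list alone, with 32.4 tags (16.2 to 57.9). The nearest TSS of Mef2c lay 7.26 kb from this peak, and 47.9 and 126 kb from the peaks further in. The middle peak, 68.8 kb inside, had 76.5 IRF4 tags at 48 h (50 to 112), then 31.9 at 72 h (16.5 to 55.7), and was in neither IRF8 list. The distal peak, 147 kb inside the gene, was found at 72 h alone, with 26.6 tags for IRF4 (12.7 to 48.8) and 39.1 for IRF8 (20.2 to 68.4). The 3 places thus had 3 different patterns over the lists. These rest on few tags, 11 at the EICE peak and 10 (IRF4) and 12 (IRF8) at the distal peak. A list without a peak gives no level there. The GC list had no interval closer than 437 kb to the gene.

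The middle Mef2c peak had the only interval of a time ratio that did not reach 1: IRF4 tags at 72 h were 0.416 times those at 48 h (0.191 to 0.855, from 12 and 26 tags). Tags were at least 1.5 times as high at 48 h at 36.0% of all 536 places in both IRF4 lists, and at least 1.5 times as high at 72 h at 2.99%. The median log2 ratio of all places was -0.39, and that of Mef2c, -1.26, lay at -0.87 relative to that median, with 7.09% of places at or below it. With Ezh2, Cd83 and Mef2b the 4 ratios near the 9 genes had a median log2 of -0.26, and 1 of 4 was past 1.5-fold; scaled instead by the median of all places, that median was 0.13, so its sign depends on the scaling, while Mef2c stayed negative. At the distal peak the IRF4 over IRF8 ratio was 0.678 (0.263 to 1.71), which counting error does not separate from 1.

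**Figure D3:**
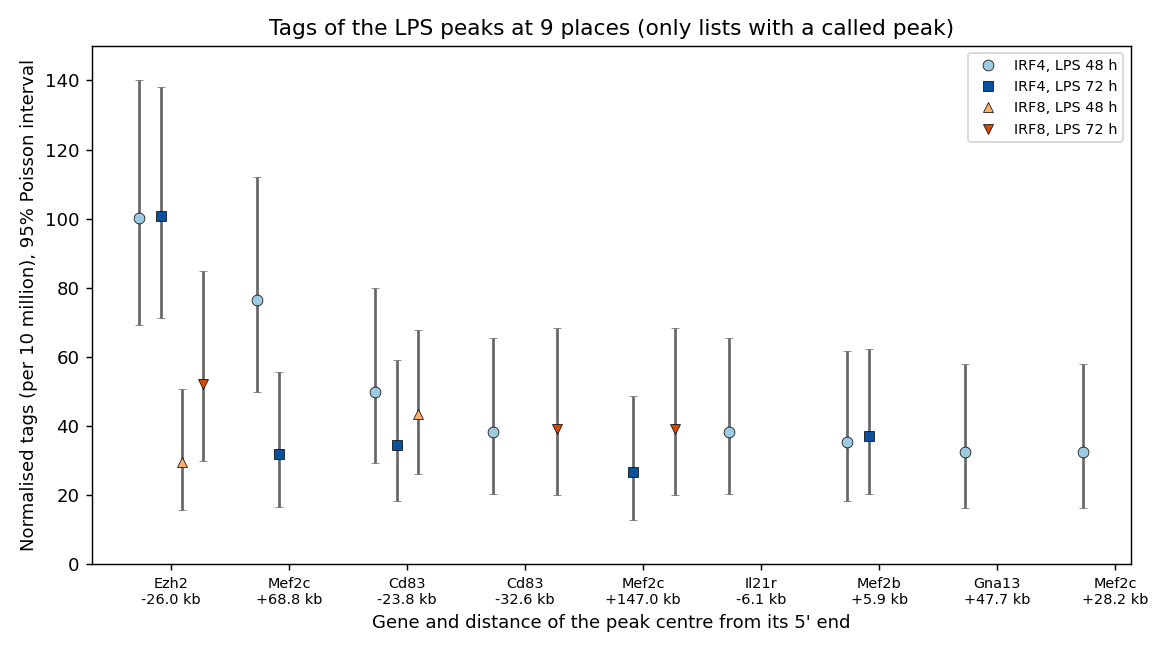
Normalised tags per 10000000 (y axis) with 95% Poisson intervals at the 9 places with an LPS peak near the 9 genes, labelled by gene and distance from its 5' end (x axis), each list only where the authors called a peak. The IRF4 points at Ezh2 (100.1 and 100.9) are the highest, Mef2c at 68.8 kb follows with 76.5 at 48 h, and all other points lie between 26.6 and 52.2.

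**Figure D4:**
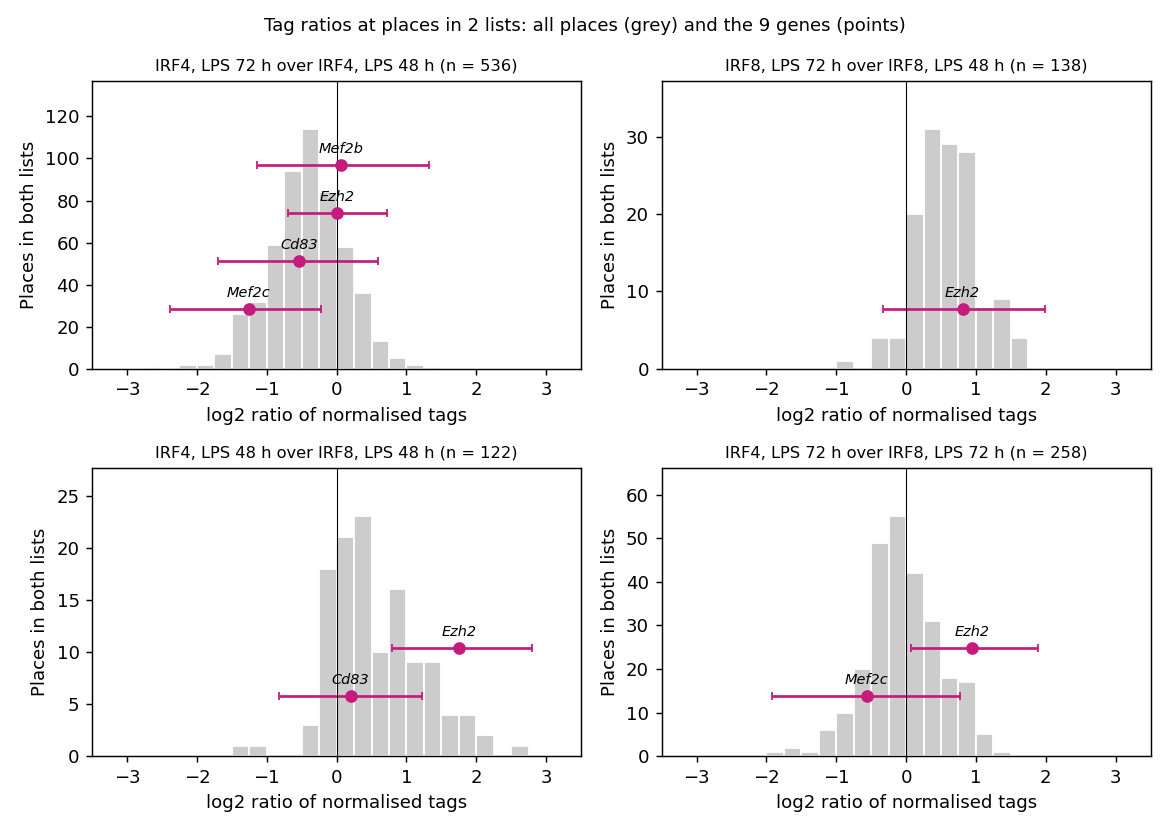
Number of places (y axis) by log2 ratio of normalised tags (x axis) at all places found in both lists of a pair (grey bars), with the places near the 9 genes as points with 95% exact intervals; the heights of the points carry no value. Ezh2 lies at 1.75 and 0.95 in the panels of IRF4 over IRF8, and Mef2c at -1.26 in the panel of IRF4 at 72 h over 48 h.

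Mef2b (chromosome 8, 72676677 to 72691387, plus strand) had 1 place, 5.88 kb inside the gene in an intron that it shares with the overlapping gene 2310045N01Rik, so the position does not tell which of them it belongs to. It was an IRF4 place in both LPS lists, with 35.3 tags (18.3 to 61.7) after 48 h against 37.2 (20.3 to 62.4) after 72 h. The time ratio was 1.05 (0.452 to 2.49). The nearest IRF8 intervals lay 195 kb (GC), 232 kb (72 h) and 641 kb (48 h) from the gene. The 201-base window held no EICE, ISRE core or AP-1 site. Over the 500 bp of the peak there was an ISRE core, as in 10.4% of all IRF4 48 h peaks and 11.9% of all IRF4 72 h peaks.

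Bcl6 (chromosome 16, 23965138 to 23988938, minus strand) had no interval in the gene or within 50 kb in any list. The nearest intervals of 4 of the lists lay upstream in intergenic sequence, with Bcl6 as the nearest TSS. They were looked at after the values were seen and are outside the rule. IRF8 GC intervals stood 145, 147, 177 and 183 kb upstream. A peak 163 kb upstream had 53.0 IRF4 tags at 48 h (31.4 to 83.7) and 26.1 IRF8 tags at 72 h (11.3 to 51.4). A peak 177 kb upstream had 73.6 IRF4 tags at 48 h (47.6 to 109), 42.5 at 72 h (24.3 to 69.0) and 29.4 IRF8 tags at 72 h (13.4 to 55.7), and it overlapped a GC interval. This last place was thus in 4 of the 5 lists, and the nearest IRF8 48 h interval lay 6740 kb from the gene.

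Both Bcl6 places are printed because each carried an EICE close to a peak centre. An EICE was in 14.6% of all IRF4 48 h windows and 22.1% of all IRF8 72 h windows. Over their 500 bp, the peaks 163 kb upstream also held an AP-1 site and an ISRE core. The first window is centred on the IRF4 48 h peak (chr16:24151601-24151801), with the EICE 2 bp from the centre. The second is centred on the IRF8 72 h peak (chr16:24165750-24165950), with the EICE 8 bp from the centre. That EICE lies further than 100 bp from the centres of both IRF4 peaks at the same place.
Bcl6, 163 kb upstream: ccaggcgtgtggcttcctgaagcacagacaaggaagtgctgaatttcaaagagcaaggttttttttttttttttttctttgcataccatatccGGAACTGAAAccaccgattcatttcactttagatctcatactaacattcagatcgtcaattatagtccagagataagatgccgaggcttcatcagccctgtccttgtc
Bcl6, 177 kb upstream: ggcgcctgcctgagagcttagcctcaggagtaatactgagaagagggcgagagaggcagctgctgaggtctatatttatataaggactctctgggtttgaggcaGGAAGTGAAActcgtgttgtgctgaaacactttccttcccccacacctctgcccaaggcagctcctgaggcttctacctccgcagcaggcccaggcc

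**Figure D5:**
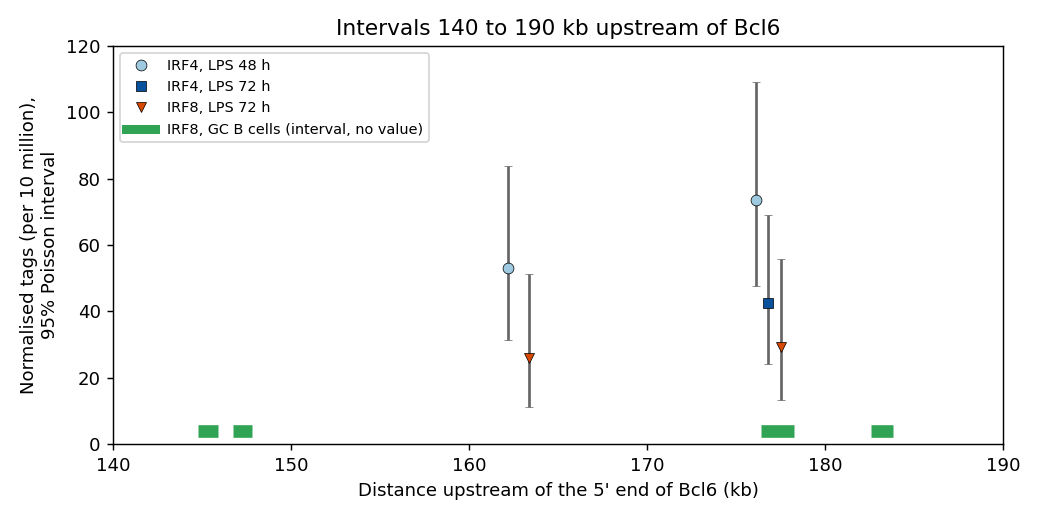
Normalised tags per 10000000 with 95% Poisson intervals (y axis) at LPS peaks, and positions of GC intervals (bars near the axis, which have no value), by distance upstream of the 5' end of Bcl6 in kb (x axis). Points are shifted sideways by up to 0.6 kb to keep the lists apart; the place at 177 kb has IRF4, IRF8 and GC marks.

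With the reach widened to 200 kb, the IRF4 48 h list had an interval for 9 of the 9 genes, the IRF4 72 h list for 5, the IRF8 48 h list for 2, the IRF8 72 h list for 5 and the GC list for 5. Of all protein-coding genes, 29.5%, 20.9%, 6.05%, 23.1% and 36.1% had one in that order. This reach was chosen after the values were seen. The farthest interval inside 50 kb was that of Cd83 at 32.6 kb, and the nearest outside were GC intervals 55.4 kb past Cd83 and 68.2 kb past Gna13.

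Of the receptors and their signalling proteins, Il21r, S1pr2 and Gna13 each had intervals of 1 list. Il21r (chromosome 7, 132746943 to 132777084, plus strand) had an intergenic peak 6.12 kb upstream, with 38.3 IRF4 tags at 48 h (20.4 to 65.4). It held an ETS core (GGAAGT) 44 bp from the centre and no EICE, and that core is in 24.9% of IRF4 48 h windows and 11.2% of genome windows. The same interval is also within 50 kb of Il4ra, the IL-4 receptor gene next to it. Gna13 (chromosome 11, 109224145 to 109262683, plus strand) had a peak past its 3' end, 47.7 kb from its start, with 32.4 IRF4 tags at 48 h (16.2 to 57.9). The nearest TSS, 3.42 kb away, was that of 9930022D16Rik, so the assignment to Gna13 rests on the distance rule alone.

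S1pr2 (chromosome 9, 20770396 to 20781237, minus strand) differed in its list: it had IRF8 GC intervals, and the nearest LPS peak was 158 kb away. The nearer interval, 2.83 kb upstream and 1455 bp wide (20783344 to 20784798), lay between genes with S1pr2 as the nearest TSS. The other, 26.5 kb upstream, lay in an exon of Mrpl4, 0.528 kb from the TSS of that gene. The GC list gives no summit or signal. Each of these intervals held an AP-1 site somewhere along its length, as 23.8% of all GC intervals do, 181 and 236 bp from the middle. In the nearer one, a similar stretch with TGGCTCA in place of the site lies elsewhere in the same interval. Genome copies of the stretch with the site were not counted, and whether it is part of a repeat was not tested. That stretch (chr9:20783872-20783908) is shown with the site in capitals.
S1pr2, 2.83 kb upstream: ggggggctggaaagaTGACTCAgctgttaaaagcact

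Fas (chromosome 19, 34365149 to 34402260, plus strand) had no interval within 50 kb. The nearest, again outside the rule, lay 96.0 kb upstream in an intron of Stambpl1, 1.8 kb from a TSS of that gene, with 65.2 IRF8 tags at 72 h (39.9 to 101) and 32.4 IRF4 tags at 48 h (16.2 to 57.9). The IRF8 72 h window (chr19:34269012-34269212) held an ISRE core 6 bp from the centre, which lies on the minus strand, so the capitals show its reverse complement. An ISRE core was in 12.1% of IRF8 72 h windows and 3.51% of genome windows.
Fas, 96.0 kb upstream: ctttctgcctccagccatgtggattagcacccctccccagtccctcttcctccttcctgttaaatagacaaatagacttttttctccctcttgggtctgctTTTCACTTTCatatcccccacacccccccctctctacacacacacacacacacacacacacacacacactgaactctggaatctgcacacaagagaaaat

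Cd83 (chromosome 13, 43880476 to 43898499, plus strand) alone among the 9 genes had an interval in all 5 lists, a pattern found at 0.393% of all protein-coding genes. It had 9 intervals at 5 places. The composite site 23.8 kb upstream had 50 IRF4 tags at 48 h (29.2 to 80.1) against 34.5 at 72 h (18.4 to 59.0), and 43.4 IRF8 tags at 48 h (26.1 to 67.8), and it overlapped a GC interval of 962 bp. The IRF8 72 h list had no peak there. Its peak lay at another place, 32.5 kb upstream, with 39.1 tags (20.2 to 68.4), where the IRF4 48 h list had 38.3 (20.4 to 65.4). All 3 tag values at the composite site had overlapping intervals: the IRF4 over IRF8 ratio at 48 h was 1.15 (0.563 to 2.34; below the median of all places) and the IRF4 ratio of 72 h over 48 h 0.69 (0.308 to 1.51).

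In GC B cells, IRF8 intervals at Cd83 formed a group upstream, at 23.9, 22.0 and 20.1 kb, and a further interval lay 5.44 kb inside the gene in an intron. No LPS peak overlapped the last 3 of these 4. The interval 22.0 kb upstream held an ISRE core 195 bp from its middle (chr13:43858680-43858719), and 37.3% of all GC intervals held one along their length. It is printed as the only ISRE core in a GC interval near the 9 genes.
Cd83, 22.0 kb upstream: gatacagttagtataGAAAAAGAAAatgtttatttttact

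Among the 87 other genes with an interval in all 5 lists, those with summed tags in the 4 LPS lists nearest to Cd83 (Euclidean distance of log2 summed tags plus 1, over 4 lists) were Pag1 at 0.62, Prkca at 0.73 and Wwox at 0.75. The summed tags of Cd83 were 88.3, 34.5, 43.4 and 39.1 for IRF4 at 48 h and 72 h and then IRF8 at 48 h and 72 h, and those of Pag1 70.7, 31.9, 34.3 and 52.2.

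Several features were shared across the 9 genes. No place was a promoter of any of them: 1 of the 24 intervals lay within 1 kb of a TSS, that of Mrpl4, while 15 were intergenic and 8 in introns. The nearest TSS was that of the assigned gene for 22 of 24 intervals. For all 24, the median number of genome copies of the 24-base words in the 201 bases around the centre was 1. Copies were not counted further out, where the AP-1 sites of the S1pr2 intervals lie. Most LPS peaks were modest: 18 intervals had 10 to 38 tags, and the lower Poisson bound was above the lowest value of the same list (18.6 to 23.6 normalised tags) for 7 of them. Where a list has no peak, the level of its library at that place is not given. The median tags near the 9 genes were 38.3, 34.5, 36.5 and 39.1 in the same order of lists, beside 38.3, 29.2, 27.4 and 32.6 over the whole lists.

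Overlap between lists was read as a share of each. Of the 8 IRF4 48 h intervals near the 9 genes, 4 (50%) were shared with IRF4 72 h, where they were 80.0% of 5; over the whole lists the shares were 34.1% and 59.7%. Both IRF8 48 h intervals lay in both IRF4 lists, where 52.1% of the whole IRF8 48 h list overlapped IRF4 at 48 h and 45.7% IRF4 at 72 h. Of the 3 IRF8 72 h intervals, 2 (66.7%) lay in each IRF4 list, against 26.5% and 24.4% over the whole list. GC intervals near the 9 genes overlapped an LPS peak at 1 place, the Cd83 composite, which was 16.7% of 6 GC intervals. Of all GC intervals, 10.5% overlapped an IRF4 48 h peak, 9.42% an IRF4 72 h peak and 2.52% an IRF8 48 h peak. Near the 9 genes no IRF8 72 h interval overlapped a GC interval, where 19.1% did over the whole list. Caller and cell type differ together between the GC list and the others, and their effects cannot be told apart.

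Elements near the 9 genes were counted by list, beside the share of all windows of that list. In the 201-base windows an EICE was at 1 of 8 IRF4 48 h intervals and at none of the 5, 2, 3 and 6 intervals of the other lists in the order used above, where 25.6%, 19.5%, 22.1% and 7.34% of all windows had one. An AP-1 site was at 1 of 8, 2 of 5, 2 of 2, 1 of 3 and 1 of 6 intervals in the order of the lists, all at Cd83 or Ezh2, beside 28.7%, 18.5%, 11.1%, 8.02% and 5.81% of all windows. These intervals stand at 2 places, so the lists do not count separate sites. The ISRE core was at none, against 4.54% of all IRF4 48 h windows and 13.5% of all GC windows. Of the 9 places with an LPS peak, 6 held none of the 3 elements, among them the middle Mef2c peak.

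Genes that act with the 9 were counted by the same rule, from lists chosen with earlier results of these data known. In all, 31 of 42 had an interval in any list: 19 for IRF4 at 48 h, 14 for IRF4 at 72 h, 2 for IRF8 at 48 h, 13 for IRF8 at 72 h and 20 for the GC list. Of all protein-coding genes, 28.1% had an interval in any list, and 11.5%, 7.61%, 1.99%, 8.81% and 15.6% in the single lists in that order. The smaller groups below are counted against the same 28.1% for any list and 15.6% for the GC list, and with 3 to 8 genes each they are descriptions only. Around BCL6, 2 of 4 co-repressor genes had one, with Bcor, a BCL6 corepressor, at 41.2 tags for IRF4 at 48 h and 32.6 for IRF8 at 72 h at a place 145 kb from its start, and a GC interval elsewhere in its reach. Around EZH2, 3 of 4 PRC2 partner genes had one. Jarid2, which helps recruit PRC2, had a place 140 kb from its start with 50 and 42.5 IRF4 tags at 48 h and 72 h and 35.9 IRF8 tags at 72 h, and a GC interval 9.0 kb upstream. Of the other MEF2 genes and Hdac7, a deacetylase that MEF2 proteins bind, 3 of 3 had an interval, each from LPS lists.

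Downstream of the IL-21 receptor, 4 of 5 genes had intervals, all 4 in the GC list, beside 28.1% and 15.6% of all genes. Stat3, the main signal transducer of IL-21, carried the most, with 3 IRF4 48 h peaks, 2 IRF8 72 h peaks and 3 GC intervals. The IRF4 peak 41.8 kb from its start had 100.1 tags at 48 h and 26.6 at 72 h and overlapped a GC interval. Another IRF4 48 h peak, 7.96 kb from its start with 41.2 tags, also overlapped a GC interval. A further IRF4 48 h peak lay 0.366 kb upstream of the Stat3 start, with 29.4 tags. The remaining GC interval lay 78.5 kb from the start, with Stat5a as the nearest TSS. The IRF8 72 h peaks lay upstream, at 10.7 kb with 32.6 tags and an EICE, and at 3.03 kb with 29.4 tags. Jak3, the kinase of the common gamma chain, had 38.3 and 23.9 IRF4 tags at 48 h and 72 h and 2 GC intervals, none with Jak3 as the nearest TSS.

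Of the 6 genes of S1PR2 signalling and of positioning, 4 had intervals. S1pr1, whose receptor draws lymphocytes towards the blood, had 50 IRF4 tags at 48 h on a directly joined AP-1-IRF composite 38.9 kb past its start, 26.6 IRF4 tags at 72 h at another place 12.9 kb past its start with none of the elements, and an IRF8 EICE peak 14.3 kb upstream with 25.1 tags at 48 h and 32.6 at 72 h. Cxcr5, the follicle homing receptor, had an IRF8 72 h peak at its start (35.9 tags), an IRF4 48 h peak nearer to Bcl9l (64.8 tags) and 3 GC intervals, of which 1 was nearest to it. In the FAS pathway 2 of 4 genes had intervals. Those of Casp8 and Cflar, which are neighbours, were in part the same: a place 7.04 kb into Casp8 had 26.5 and 26.6 IRF4 tags at 48 h and 72 h and a GC interval. Casp8 also had an IRF4 place 88.1 kb from its start, nearer to Trak2, with 35.3 and 34.5 tags at 48 h and 72 h. Cflar also had a GC interval 0.317 kb upstream of its start. An IRF4 48 h peak with an EICE lay 17.6 kb upstream of Cflar, nearer to Als2cr12, with 35.3 tags.

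Of 8 further genes of the GC programme, 6 had intervals. Lmo2, a GC marker gene, had 29.4 and 26.6 IRF4 tags at 48 h and 72 h and 29.4 IRF8 tags at 72 h at 1 place 40.4 kb upstream, and Foxo1, a transcription factor of the dark zone, 41.2 and 34.5 IRF4 tags at 48 h and 72 h, 3.3 kb inside the gene, and a GC interval elsewhere. Of 8 activation and co-stimulation genes, 7 had intervals. Icosl, the ligand of the T cell receptor ICOS, was the only other gene of these lists with an interval in all 5. It had 1 shared place 17.9 kb from its start with 38.3 and 55.8 IRF4 tags, 25.1 and 39.1 IRF8 tags and a GC interval. An EICE was in the windows of the IRF4 48 h, IRF8 72 h and GC intervals there. The windows of the IRF4 72 h and IRF8 48 h peaks held none, as it did not lie wholly within 100 bp of their centres. The EICE of the IRF8 72 h window does lie within the 500 bp of both these peaks. A further GC interval lay 6.09 kb upstream of Icosl, with no EICE in its window. Cd69, an early activation marker, had 29.4 and 23.9 IRF4 tags at 48 h and 72 h and a GC interval nearer to Clec2d.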

How the data were processed

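The 5 deposited files are lists of bound intervals on mm9, 1 library each. Per the file headers, HOMER findPeaks made the 4 LPS lists, with peaks of 500 bp, a false discovery rate of 0.001, at least 4-fold over the surrounding 10000 bp and at most 1 tag per position. No input is named there, and the tags of IRF8 at 72 h carry the name of a second replicate in their header. The GC list was called with MACS per the series' design text and gives positions alone. The submitters' processing notes name Bowtie2 and BWA, with no role, and the design text words the alignment differently.

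The deposited tag count is a signal that the authors set to 10000000 tags in every library. The deposited score, fold ratios, p-values and focus ratio (a fraction) of the authors' caller were not used. Libraries held 3396941 and 3766015 tags for IRF4 (48 h, 72 h) and 4375858 and 3065426 for IRF8, of which 0.18% to 0.82% lay in peaks; the GC depth is unknown. Undoing the scaling gave whole tags within 0.05 for 100% of LPS peaks, used for exact Poisson intervals and exact conditional binomial intervals of ratios at 95% (scipy 1.17.1).

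Intervals were assigned with GENCODE M1 on NCBIM37, which is mm9; LPS positions are printed as in the files, and GC starts with 1 added. An overlap of 1 bp counted as shared. The search for elements covered both strands and 100 bp on each side of a centre. Sequences are from NCBIM37. All 9 genes are named with all their intervals, and pathway genes with intervals in 3 or more lists, except 1 that is not reported here. The genes and lists were chosen with earlier results of these data known. No test across conditions was run; interval and assignment code was tested on simulated data.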

Additional observations from a re-analysis of the deposited data

How the results depend on the processing

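Counts are given for IRF4 (48 h, 72 h), then IRF8 (48 h, 72 h, GC). With gene bodies alone, the intervals numbered 3, 3, 0, 1 and 1, and the genes with one 2, 2, 0, 1 and 1. Within 20 kb the intervals were 5, 3, 0, 1 and 2, and the genes 2 for IRF4 72 h, 0 for IRF8 48 h and 1 for IRF8 72 h. Within 200 kb, chosen after seeing the data, the intervals were 14 for IRF4 48 h, 7 for IRF8 72 h and 14 for GC, and the genes 5 for IRF8 72 h and 5 for GC. The upper part of the IRF4 48 h list by tags kept 5 intervals; the GC list has no values for this. A reach of 100 kb, any overlap, the nearest TSS alone and leaving out multi-copy intervals moved no count past 1.5 times. The GC list came to that limit at 100 kb, with 9 intervals against 6 and 3 genes against 2.

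With windows of 50 bp on each side, the EICE count of IRF4 48 h was 0, the AP-1 counts 1, 1, 0 and 0 (IRF4 72 h, IRF8 48 h, IRF8 72 h, GC) and the ETS count of IRF8 72 h 0. Over whole intervals the ISRE counts were 2, 2 and 1 (IRF4 48 h, IRF4 72 h, GC), the AP-1 counts 2 for IRF4 48 h and 3 for GC, the spaced composite 1 for GC, and the ETS counts 1 for IRF4 72 h and 3 for GC. With centres within 100 bp, the GC list shared 0 places with IRF4 48 h, IRF4 72 h and IRF8 48 h; the cause was not tested. Scaling by the median of all shared places moved the median log2 ratio near the 9 genes from -0.26 to 0.13 for IRF4 (72 h over 48 h), from 0.81 to 0.23 for IRF8, from 0.98 to 0.53 for IRF4 over IRF8 at 48 h and from 0.20 to 0.24 at 72 h. These medians rest on 4, 1, 2 and 2 places in that order. The IRF8 value is Ezh2 alone, and the unscaled 72 h value lies between 0.95 (Ezh2) and -0.56 (Mef2c). No paired analysis was possible because each group had 1 library, and for the same reason no replicate could be left out. Depth limits the tag values: a peak of 10 to 38 tags leaves wide intervals, and a place absent from a list has no value there.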
